A study of Mus musculus with 8 samples.

Results

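Olfml3 and 8 genes used as markers of microglia were followed across the retinas of mice with and without tamoxifen-induced loss of the RNA-binding protein Rbfox2. The 8 markers are Csf1r, Cx3cr1, P2ry12, Trem2, Tyrobp, C1qa, Aif1 and Tmem119. The 9 genes are among 17500 genes in the deposited count table, and all 9 are among the 16797 genes that passed the filter on low counts and were tested. Olfml3 was chosen by its false discovery rate (FDR) in the same comparison of the same retinas, so its difference between the groups is given as a description without a test. The other 8 genes were named for their expression in microglia. Which cells of the retina made the Olfml3 RNA was not measured.

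Poly(A)-selected libraries were made from the retinas of 4 control and 4 Rbfox2-/- mice, with 1 library per mouse. The Rbfox2-/- mice (M893, M901, M902 and M909) were Rbfox2 fl/fl animals in which tamoxifen had activated a Cre recombinase, and whether microglia lost Rbfox2 was not measured. The controls (M833, M894, M896 and M898) were age-matched mice that the methods describe as heterozygous Rbfox2 fl/+, and the methods do not say whether they carried Cre or received tamoxifen or vehicle. Every mouse was on the C57BL/6J background and 6 months old, and the tissue was whole retina. The methods describe a short oral course of tamoxifen for the Rbfox2 fl/fl animals, with retinas taken 4 months later, whereas the labels give tamoxifen over 4 months for every sample, controls included.

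Microglia are the resident macrophages of the retina. They arise outside the nervous system, settle in the plexiform layers, and depend on signalling through the receptor Csf1r for their survival. The surveying state in healthy tissue is marked by Tmem119, P2ry12 and Cx3cr1, while the adaptor Tyrobp and its partner Trem2 transmit signals that accompany phagocytosis. Olfml3 (olfactomedin-like 3) encodes a secreted glycoprotein with an olfactomedin domain that is enriched in microglia of the mouse brain and is also known as a factor of growing blood vessels.

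Each library held 160630226 to 211283591 counts on genes. The unit of level is CPM, read counts brought to one common normalised library size, in which 3 counts, taken as the detection limit, were worth 0.0144 to 0.0189 CPM (counting error only). Rbfox2 itself had 149.6 ± 5.39 CPM (SD, n = 4) in controls and 56.5 ± 3.15 CPM (SD, n = 4) in Rbfox2-/- retinas, and every Rbfox2-/- library lay below every control library. The Rbfox2-/- libraries M901 and M902 stood apart, with 277506 and 275967 counts of Xist, the RNA of the inactive X chromosome, against 312 to 426 counts in each of the other 6 libraries. Xist-positive libraries occurred only in the Rbfox2-/- group, so values are also given without M901 and M902. The same libraries had a low sum of fibroblast and scleral markers, though not of all genes of the tissue around the retina. The pigment epithelium and ciliary markers summed to 52.9 CPM in M901 and 85.3 CPM in M902, against 82.0 to 254.5 CPM in controls. The summed level of 10 fibroblast and scleral markers was 97.3 CPM in M901 and 92.7 CPM in M902, against 188 to 290.2 CPM in controls and 221 and 234 CPM in M893 and M909, and the matrix gene Fbln1 had 2.52 and 2.09 CPM against 51.1 to 113 CPM in the other 6 libraries. These genes and the ciliary genes Best2 and Slc13a4 below were singled out after their values were seen.

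Olfml3 lies on the minus strand of chromosome 3 of GRCm38 (103735394 to 103738001 in RefSeq). The gene length implied by the deposited values, 1736 bases, equals the RefSeq exon length, whereas the GENCODE M21 transcript is 5465 bases long and runs further at its 3′ end. Rbfox proteins bind the letters TGCATG, which were searched on the transcript strand. The longer transcript holds 2 copies, both downstream of the stop codon, and the counted 1736 bases hold 0. Windows around the copies begin 1287 and 1318 bases beyond the RefSeq 3′ end. These windows are shown because Rbfox2 was the protein removed, with the motif in capitals, 5′ to 3′ on the minus strand of GRCm38, at chr3:103734078-103734107 for the first and chr3:103734047-103734076 for the second.
Olfml3 TGCATG site 1: tgtggcgctgtgTGCATGtgtaatgtgcgt
Olfml3 TGCATG site 2: tgcacatctctcTGCATGgctgtgcggctg
The letters are common in RNAs of this size. Among 1174 transcripts of tested genes within 500 bases of the same length, 77.17% held at least 1 copy and 46.68% at least 2. Of the other 8 genes, Tmem119, Cx3cr1 and Trem2 held 1 copy each in their GENCODE transcript, and the remaining genes held 0. A match is a description of the sequence and not a binding site.

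The purine-rich letters GAGGAA are the core bound by PU.1, the ETS factor that directs macrophage genes. They were searched on both strands (TTCCTC in reverse) in the 250 bases before a transcript start (GRCm38.p6). The promoters supplied matched 5 of the 9 genes. Trem2 and Aif1 held 1 copy, 40 and 7 bases before the start that the promoters use, and Olfml3, P2ry12 and Cx3cr1 held 0. The Aif1 window (chr17:35176053-35176302, minus strand) overlaps the RefSeq gene, which ends at 35176083, and its copy lies within the gene. Of 32851 promoters, 23.25% held the letters. The promoters of Olfml3 and of Trem2 are shown side by side, one without and one with the letters, with GAGGAA or its reverse in capitals. The Olfml3 window is chr3:103738002-103738251 on the minus strand and that of Trem2 chr17:48346151-48346400 on the plus strand.
Olfml3 promoter: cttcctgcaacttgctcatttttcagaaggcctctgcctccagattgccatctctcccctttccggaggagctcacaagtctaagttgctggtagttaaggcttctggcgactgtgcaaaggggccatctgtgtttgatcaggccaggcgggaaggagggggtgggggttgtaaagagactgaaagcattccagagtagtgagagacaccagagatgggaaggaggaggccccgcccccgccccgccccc
Trem2 promoter: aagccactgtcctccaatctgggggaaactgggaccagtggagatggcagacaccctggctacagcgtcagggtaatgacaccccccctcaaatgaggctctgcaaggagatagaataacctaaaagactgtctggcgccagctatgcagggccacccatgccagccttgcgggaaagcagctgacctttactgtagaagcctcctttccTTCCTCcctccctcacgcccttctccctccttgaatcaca
The bases nearest the Olfml3 start are mostly C, and the window holds neither orientation of the searched letters. No statement about PU.1 follows from this.

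Olfml3 was higher in every Rbfox2-/- retina than in any control. The controls had 9.33 CPM (M833), 10.9 CPM (M894), 9.53 CPM (M896) and 10.2 CPM (M898). The Rbfox2-/- retinas had 15.2 CPM (M893), 14.7 CPM (M901), 13.03 CPM (M902) and 14.7 CPM (M909). The groups did not overlap, and the lowest Rbfox2-/- value belonged to M902. The means were 10.001 ± 0.721 CPM (SD, n = 4) in controls and 14.4 ± 0.930 CPM (SD, n = 4) in Rbfox2-/- retinas, which was 1.44 times the control mean and a fitted log2 fold change of 0.52 (standard error 0.069, 95% interval 0.37 to 0.68). These values rest on 1810 to 1942 counts per control library and 2068 to 2826 counts per Rbfox2-/- library. Because the gene was selected on this difference, the interval describes these retinas and is not a test.

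None of the 8 microglial markers had a fitted difference as large as that of Olfml3, which was selected on it. Of all 16797 genes tested, 11 (0.0655%) were called at an FDR under 0.05 in edgeR (quasi-likelihood test, Benjamini-Hochberg adjustment over all genes tested). Among them, Olfml3, selected on that value, was the only gene of the 9. Without M901 and M902, 1 gene was called and the adjusted p of Olfml3 in edgeR, a value that is no test here, was 0.204. With 1 surrogate variable 4 genes were called, with DESeq2 460, and in 5 of the 8 fits that leave out a library Olfml3 was not called. Of the other 8 genes 0 were called, and 0 had an unadjusted p under 0.05. Tmem119 was marginally higher, and the other 7 had fitted values below 0, with a median log2 fold change over the 8 genes of -0.12. Over all genes tested 49.34% had values below 0 and the median was 0.0016. The levels of Rbfox2-/- and control retinas overlapped for each of the 8 genes, while among all genes tested 3.39% had all Rbfox2-/- retinas below all controls and 3.64% had all of them above.

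**Figure D1:**
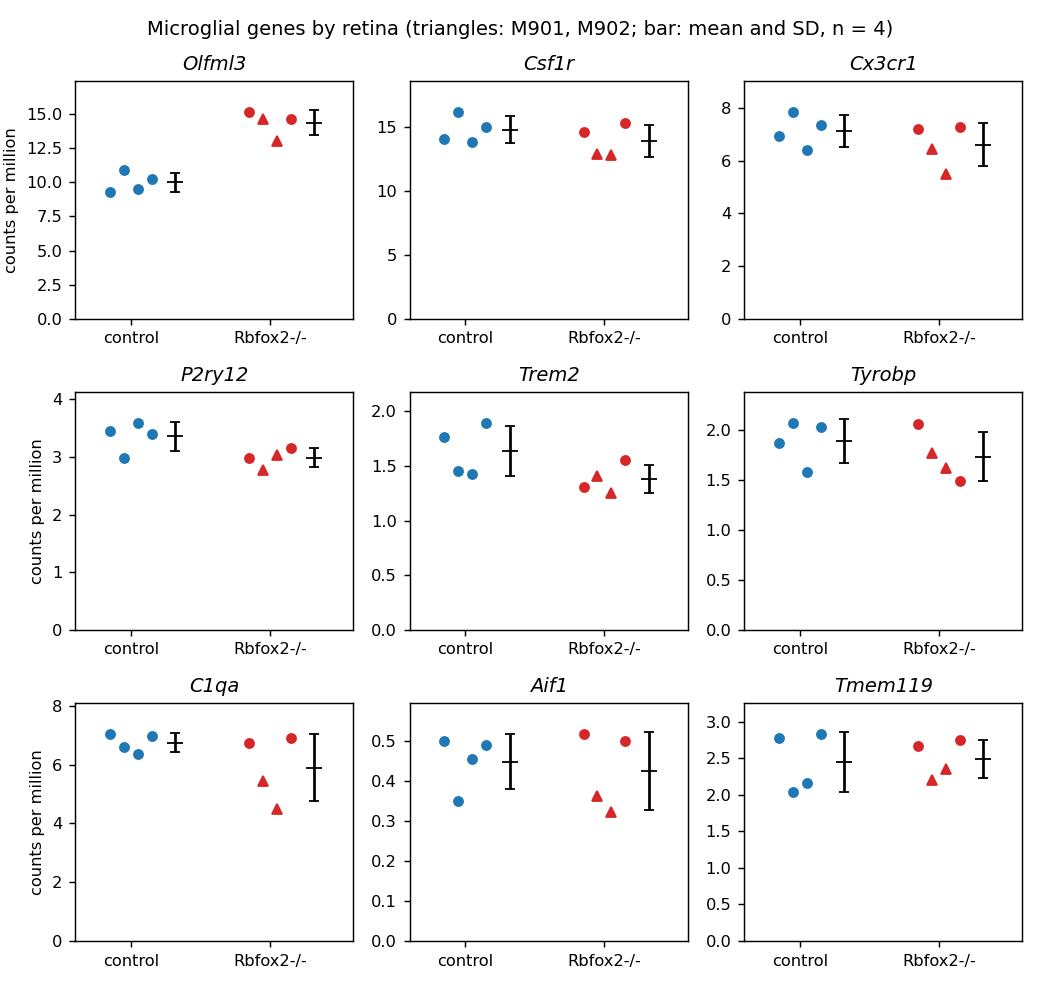
Level in CPM (vertical axes, starting at 0) of each of the 9 genes in the 4 control (blue) and 4 Rbfox2-/- (red) retinas. Triangles mark M901 and M902, and bars give the mean and SD. Olfml3 is the one gene whose groups do not overlap, and M901 and M902 are the lowest Rbfox2-/- retinas for Csf1r, Cx3cr1, C1qa, Aif1 and Tmem119.

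Csf1r encodes the receptor for the ligands Csf1 and Il34, which microglia need to survive. On chromosome 18 (61105572 to 61131139), it was the best counted of the 8 genes, with 14.1 CPM (M833), 16.2 CPM (M894), 13.9 CPM (M896) and 15.04 CPM (M898) in controls. The Rbfox2-/- retinas had 14.6 CPM (M893), 12.9 CPM (M901), 12.8 CPM (M902) and 15.3 CPM (M909). Of these, M901 and M902 were below the control range and the other 2 inside it. Fitted over all retinas, the difference was -0.089 on the log2 scale (standard error 0.075, 95% interval -0.26 to 0.079, adjusted p = 0.641 in edgeR).

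Cx3cr1, the receptor for the neuronal chemokine fractalkine, lies on chromosome 9 (120048683 to 120068296). Its levels were 6.95 CPM (M833), 7.86 CPM (M894), 6.40 CPM (M896) and 7.36 CPM (M898) in controls, and 7.20 CPM (M893), 6.45 CPM (M901), 5.51 CPM (M902) and 7.30 CPM (M909) in Rbfox2-/- retinas. M902 alone was below the control range. In log2 terms the difference was -0.11 (standard error 0.101, 95% interval -0.34 to 0.12, adjusted p = 0.675 in edgeR).

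P2ry12, the receptor for ADP that steers microglial processes towards injury, lies on chromosome 3 (59216271 to 59262985), far from Olfml3. It had 3.45 CPM (M833), 2.99 CPM (M894), 3.59 CPM (M896) and 3.40 CPM (M898) in controls, and 2.98 CPM (M893), 2.78 CPM (M901), 3.04 CPM (M902) and 3.16 CPM (M909) in Rbfox2-/- retinas. Apart from M894, each control was above each Rbfox2-/- retina. The log2 fold change was -0.17 (standard error 0.090, 95% interval -0.37 to 0.034, adjusted p = 0.451 in edgeR).

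Trem2, a lipid-sensing receptor, signals through Tyrobp, a membrane adaptor. Trem2 (chromosome 17, 48346401 to 48352276) had 1.76 CPM (M833), 1.45 CPM (M894), 1.43 CPM (M896) and 1.89 CPM (M898) in controls, against 1.31 CPM (M893), 1.41 CPM (M901), 1.254 CPM (M902) and 1.55 CPM (M909). Its log2 fold change was the lowest of the 9 genes at -0.24 (standard error 0.135, 95% interval -0.54 to 0.059, adjusted p = 0.469 in edgeR), and 3 of the 4 Rbfox2-/- retinas were below every control. Tyrobp (chromosome 7, 30413782 to 30417582) had 1.87, 2.07, 1.58 and 2.03 CPM in M833, M894, M896 and M898, and 2.06, 1.77, 1.62 and 1.49 CPM in M893, M901, M902 and M909. M909 was the one Rbfox2-/- retina below the control range, and the log2 fold change was -0.12 (standard error 0.136, 95% interval -0.43 to 0.18, adjusted p = 0.737 in edgeR).

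C1qa, a chain of the complement initiator C1q that microglia secrete, lies on chromosome 4 (136895916 to 136898844). Control retinas ranged narrowly, with 7.04 CPM (M833), 6.59 CPM (M894), 6.38 CPM (M896) and 6.99 CPM (M898). Rbfox2-/- retinas split, with 6.73 CPM (M893) and 6.91 CPM (M909) inside the control range and 5.44 CPM (M901) and 4.49 CPM (M902) below it. The fitted log2 difference was -0.19 (standard error 0.127, 95% interval -0.48 to 0.088, adjusted p = 0.541 in edgeR).

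Aif1 encodes the cytoskeletal protein Iba1, the antigen by which microglia are usually stained, and lies on chromosome 17 (35170986 to 35176083). It was the least abundant of the 9 genes, with 51 to 104 counts per library. The levels were 0.500 CPM (M833), 0.351 CPM (M894), 0.455 CPM (M896) and 0.491 CPM (M898) in controls, and 0.517 CPM (M893), 0.363 CPM (M901), 0.321 CPM (M902) and 0.500 CPM (M909) in Rbfox2-/- retinas. As for C1qa, M901 and M902 were the low Rbfox2-/- retinas, but the control M894 was low too. Fitted values gave -0.077 on the log2 scale, with a wide interval from -0.56 to 0.40 (standard error 0.215, adjusted p = 0.911 in edgeR).

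Tmem119, a membrane protein used to tell microglia from other macrophages, lies on chromosome 5 (113793729 to 113800396). It had 2.78 CPM (M833), 2.04 CPM (M894), 2.16 CPM (M896) and 2.83 CPM (M898) in controls, and 2.67 CPM (M893), 2.20 CPM (M901), 2.36 CPM (M902) and 2.75 CPM (M909) in Rbfox2-/- retinas. All Rbfox2-/- values fell inside the control range. The log2 fold change was 0.025 (standard error 0.137, 95% interval -0.28 to 0.33, adjusted p = 0.958 in edgeR).

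**Figure D2:**
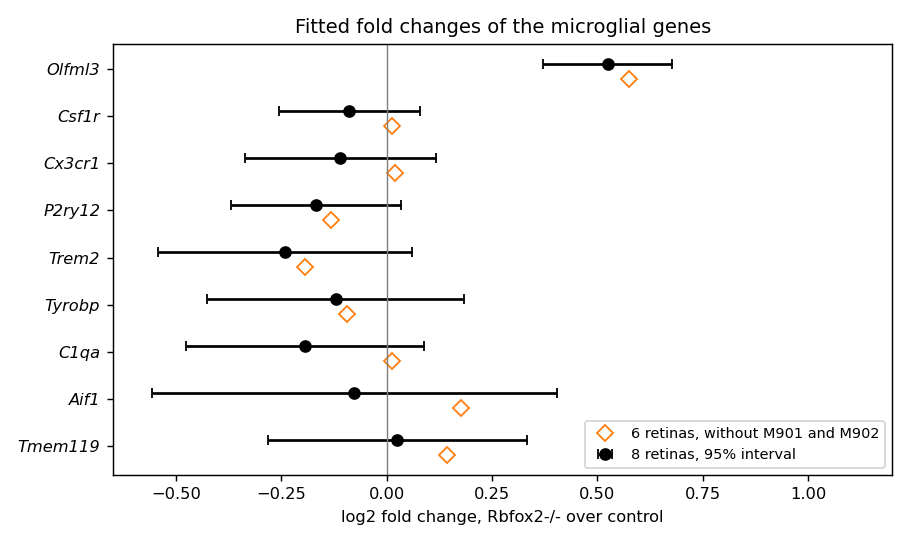
Fitted log2 fold change of Rbfox2-/- over control retinas (horizontal axis) for each of the 9 genes (rows). Black bars give 95% intervals over 8 retinas, and orange diamonds the value over 6 retinas without M901 and M902. Olfml3 lies at 0.52 and the other genes between -0.24 and 0.025, and without M901 and M902 the diamonds of Cx3cr1, Csf1r, C1qa and Aif1 pass to the right of 0.

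To compare levels between genes, the deposited FPKM values, which divide the counts by gene length, were used. C1qa was highest in control retinas with 6.27 ± 0.270 FPKM (SD, n = 4), followed by Olfml3 with 5.80 ± 0.475 FPKM (SD, n = 4), and the ranges of these neighbours overlapped (5.95 to 6.57 against 5.30 to 6.37). Csf1r had 3.85 ± 0.306 FPKM (SD, n = 4) and Tyrobp 3.36 ± 0.406 FPKM (SD, n = 4), again with overlapping ranges. Cx3cr1 followed with 1.92 ± 0.177 FPKM (SD, n = 4), above P2ry12 with 1.44 ± 0.107 FPKM (SD, n = 4) and Trem2 with 1.43 ± 0.2002 FPKM (SD, n = 4). The levels of P2ry12, Trem2 and Tmem119 (1.19 ± 0.195 FPKM) overlapped, and Aif1 was lowest at 0.516 ± 0.0762 FPKM. The median gene of the table had 6.28 FPKM in controls. C1qa was at this median, with control retinas on both sides of it. Olfml3 was below it on average, though its highest control was above. The remaining genes were below it in every control. In Rbfox2-/- retinas the order at the top was reversed, with 8.24 ± 0.586 FPKM (SD, n = 4) for Olfml3 and 5.42 ± 1.08 FPKM (SD, n = 4) for C1qa, whose ranges did not overlap (7.42 to 8.80 against 4.10 to 6.35).

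The summed level of the 8 genes other than Olfml3 was used as a microglial signal of each retina. Its largest parts were Csf1r, Cx3cr1 and C1qa, with control means of 14.8, 7.14 and 6.75 CPM, which macrophages at the retinal borders share. Fewer microglia, fewer border macrophages and less of these RNAs per cell cannot be told apart in bulk tissue. The summed level was 38.5 CPM (M833), 39.6 CPM (M894), 35.8 CPM (M896) and 40.02 CPM (M898) in controls. In Rbfox2-/- retinas it was 38.1 CPM (M893), 33.3 CPM (M901), 31.4 CPM (M902) and 39.0 CPM (M909). The mean was 38.5 ± 1.87 CPM (SD, n = 4) in controls and 35.5 ± 3.65 CPM (SD, n = 4) in Rbfox2-/- retinas, a ratio of 0.922, and the groups overlapped. M893 and M909 averaged 1.001 times the control mean and M901 and M902 averaged 0.842 times. The lower summed level thus rested on the libraries with Xist and with a low sum of fibroblast and scleral markers. The part of either in the lower level was not tested.

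Olfml3 was also set against these genes within each retina. Expressed as a percentage of the summed level, it was 24.2% (M833), 27.6% (M894), 26.6% (M896) and 25.5% (M898) in controls. In Rbfox2-/- retinas the percentage was 39.8% (M893), 44.0% (M901), 41.5% (M902) and 37.6% (M909). The means were 26.0% ± 1.45 (SD, n = 4) and 40.7% ± 2.68 (SD, n = 4), a ratio of 1.57, and the ratio without M901 and M902 was 1.49, the same as for Olfml3 alone in M893 and M909. The higher share was present in both kinds of Rbfox2-/- library, since Olfml3 itself was 1.49 times the control mean in M893 and M909, whose summed level was near that of controls, and 1.39 times in M901 and M902. In no Rbfox2-/- retina did the summed level exceed the highest control.

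**Figure D3:**
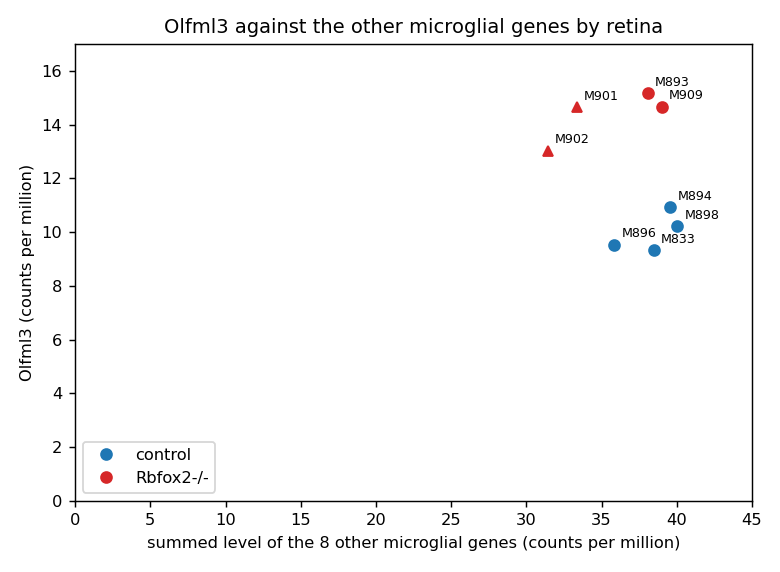
Olfml3 (vertical axis, CPM) against the summed level of the 8 microglial markers (horizontal axis, CPM), 1 point per retina. Controls are in blue, Rbfox2-/- in red, and triangles mark M901 and M902. The Rbfox2-/- points lie above the controls at summed levels both within and below the control range.

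Within the groups, the 8 genes differed in how they tracked Olfml3. After subtraction of the group means on the log2 CPM scale, Pearson's r to Olfml3 over 8 retinas was 0.873 for Cx3cr1, 0.774 for Csf1r, 0.59 for Tyrobp and 0.557 for C1qa. It was 0.12 for Aif1, 0.066 for Trem2 and -0.125 for Tmem119, and P2ry12 went the other way with -0.611. Among the other genes, Cx3cr1 and Csf1r moved together (0.898), as did Aif1 and C1qa (0.852) and Tmem119 and Trem2 (0.787). The points share library, depth and the 8 retinas, and over so few retinas such values are a description. For the summed level of the 8 genes r to Olfml3 was 0.682.

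The genes whose variation within the groups was most like that of Olfml3 were Gphn (0.988), Gnai2 (0.977), Mfap5 (0.977), Gm10825 (0.976) and Slc5a5 (0.974), over 8 retinas, and 72 of 16796 genes exceeded 0.9. Without subtraction of the group means they were Angpt2 (0.979), Arhgap15 (0.975), Top1mt (0.972), Mettl15 (0.969) and Pm20d1 (0.963), so that the lists of 5 shared 0 genes. Cx3cr1 ranked 129 and Csf1r 497 of 16796 within the groups. By cell type, the median r to Olfml3 within the groups was 0.826 over 10 endothelial markers and 0.62 over 13 border macrophage genes. It was 0.592 over 10 pigment epithelium and ciliary markers, 0.584 over 10 pericyte and smooth muscle markers and 0.575 over 20 genes listed for activated microglia. Fibroblast and scleral markers had 0.488. The 8 microglial genes had 0.338, close to Muller glia markers (0.343), ganglion, amacrine and horizontal cell markers (0.327), blood leukocyte markers (0.326) and astrocyte markers (0.301). The median was -0.43 over 8 rod markers and -0.0139 over all genes tested.

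Lists of other genes known from microglia were described as well. Their counts are read against the whole table, in which 6.87% of genes were lower and 6.42% higher at an unadjusted p under 0.05 (edgeR's quasi-likelihood test). No gene of these lists was called at that FDR. With M901 and M902 left out, the corresponding shares of the whole table were 2.46% lower and 3.5% higher.

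Among 20 other genes listed for surveying microglia, 1 was higher and 3 were lower at an unadjusted p under 0.05, and the median log2 fold change was -0.081. The higher gene was Bin1, with a control mean of 279 CPM against 14.8 CPM for Csf1r. Gas6 (265 CPM), Sparc (175 CPM) and Itgb5 (53.5 CPM) were also far above Csf1r. The cell source of these genes, singled out after their values were seen, was not tested. The lowest p values belonged to Mertk, a receptor for the uptake of dying cells and photoreceptor debris, at -0.24 on the log2 scale (standard error 0.071, adjusted p = 0.239 in edgeR), and to the secreted ribonuclease Rnase4 with -0.38 (standard error 0.133, adjusted p = 0.286 in edgeR). Mertk had 9.56 to 11.2 CPM in controls and 8.23 to 9.69 CPM in Rbfox2-/- retinas, with an overlap made by M894 and M909. Of 10 myeloid transcription factors, 1 was lower and 0 were higher at that threshold, and the median was -0.048. Mef2c of this list had a control mean of 188 CPM, and its cell source was not tested. Irf8, a factor needed for the microglial lineage, had -0.30 (standard error 0.130, adjusted p = 0.364 in edgeR) and Ikzf1, a regulator of blood lineages, -0.18 (adjusted p = 0.693 in edgeR). Without M901 and M902, 0 genes of either list were lower at that threshold.

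Of 20 genes of Tyrobp signalling, Fc receptors and complement, 17 had values below 0, and the median was -0.22. At an unadjusted p under 0.05, 6 were lower and 0 higher. C3ar1, the receptor for complement C3a, was below every control in all Rbfox2-/- retinas, with 0.653, 0.696, 0.528 and 0.638 CPM in M833, M894, M896 and M898 and 0.477, 0.374, 0.252 and 0.432 CPM in M893, M901, M902 and M909 (log2 fold change -0.71, standard error 0.215, adjusted p = 0.243 in edgeR). Inpp5d, the phosphatase SHIP1 that dampens Trem2 and Tyrobp signalling, had -0.30 (standard error 0.115, adjusted p = 0.316 in edgeR). C1qb and C1qc, the partner chains of C1qa, were singled out after their values were seen and had -0.21 and -0.25, close to the -0.19 of C1qa. The summed level of the list ranged from 46.4 to 54.6 CPM in controls and from 35.7 to 50.8 CPM in Rbfox2-/- retinas, and without M901 and M902 the count of lower genes went from 6 to 0 and the median to -0.072.

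Of 26 genes listed for activated microglia and the phagolysosome 20 were tested. At an unadjusted p under 0.05, 3 were lower and 0 higher, with a median of -0.098. Gpnmb had 17.5, 56.7, 16.5 and 127 CPM in M833, M894, M896 and M898, high in M894 and M898 like the pigment gene Pmel below. Apoe, with a control mean of 885.5 CPM, is also listed for Muller glia, and Ctsb and Ctsd had 477 and 334 CPM. The cell source of these genes, singled out after their values were seen, was not tested. The chemokine and cytokine genes Ccl3, Tnf and Il1b, with Cst7, did not pass the filter, and Ccl2 and Ccl4 had no row in the table. Axl, a receptor for apoptotic cells, had -0.33 (standard error 0.102, adjusted p = 0.248 in edgeR). Cybb, the oxidase subunit of phagocytes, was below every control in each Rbfox2-/- retina, with 0.567 to 0.741 CPM in controls and 0.523 CPM (M893), 0.145 CPM (M901), 0.170 CPM (M902) and 0.375 CPM (M909) in Rbfox2-/- retinas (log2 fold change -1.13, standard error 0.368, adjusted p = 0.268 in edgeR). Its value without M901 and M902 was -0.57, and the count of lower genes in the list was then 1.

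Signals that microglia receive were described by the ligands of Csf1r and Cx3cr1 and by the TGF-beta pathway, of which 21 of 23 genes were tested. At an unadjusted p under 0.05, 5 were lower and 0 higher, with a median of -0.054 and 1 lower gene without M901 and M902. Tgfbr2, the receptor chain that binds TGF-beta, had -0.41 (standard error 0.132, adjusted p = 0.268 in edgeR) and the co-receptor Tgfbr3 -0.63 (standard error 0.219, adjusted p = 0.284 in edgeR). The ligands were singled out after their values were seen. Il34 had 6.76 to 8.74 CPM in controls and 5.89 to 7.34 CPM in Rbfox2-/- retinas (log2 fold change -0.25, adjusted p = 0.344 in edgeR), Csf1 had -0.19 (adjusted p = 0.492 in edgeR), and Cx3cl1, the fractalkine ligand, had -0.0016 (adjusted p = 0.994 in edgeR).

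**Figure D4:**
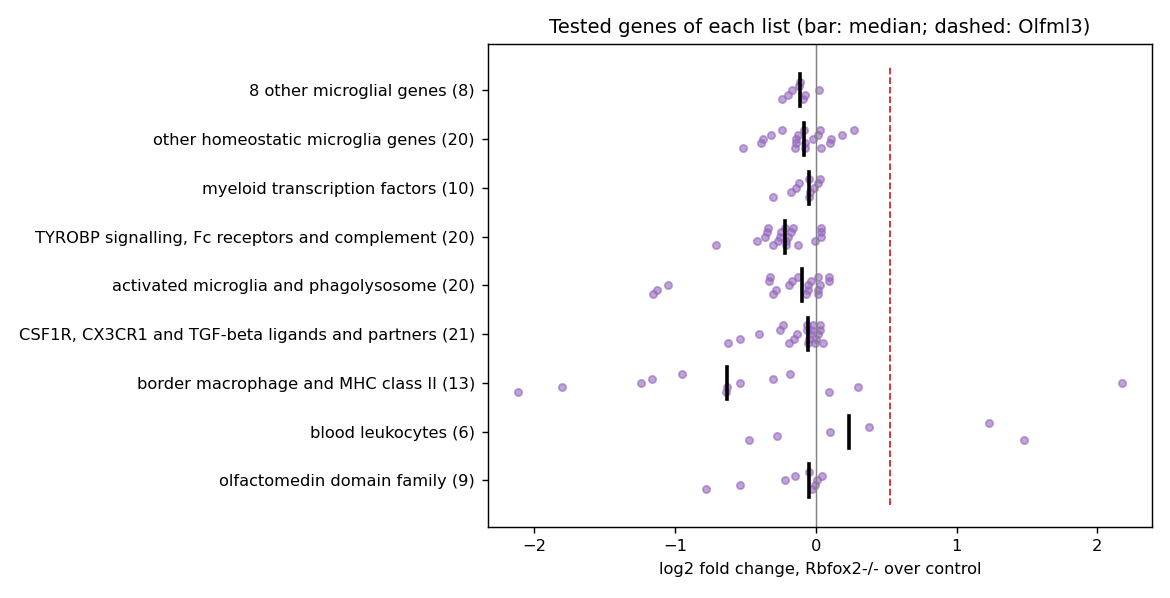
Log2 fold change of Rbfox2-/- over control retinas (horizontal axis) of each tested gene of the microglial and related lists (rows, with the number tested in brackets), with black bars for the medians and a dashed line at the value of Olfml3, 0.52. The medians of the microglial lists lie between -0.22 and -0.048, and the border macrophage and blood leukocyte lists spread furthest.

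Macrophages at the borders of the retina share Csf1r, Cx3cr1, C1qa and Tyrobp with microglia, so their own markers were examined. Of 14 listed genes 13 were tested, with 4 lower and 1 higher at an unadjusted p under 0.05 and a median of -0.63. F13a1, a coagulation factor of perivascular macrophages, had 0.447, 1.001, 0.606 and 0.700 CPM in M833, M894, M896 and M898 and 0.426, 0.0571, 0.0441 and 0.255 CPM in M893, M901, M902 and M909 (log2 fold change -1.80, standard error 0.594, adjusted p = 0.268 in edgeR). Every Rbfox2-/- retina lay below every control, M901 and M902 furthest. Lyve1, a hyaluronan receptor, had -0.18 (standard error 0.059, adjusted p = 0.266 in edgeR), also without overlap. With a control mean of 14.5 CPM, Lyve1 made the largest part of the summed level of the list. Its values of 11.7 and 13.8 CPM in M901 and M902 stood beside 13.03 and 12.5 CPM in M893 and M909, unlike those of F13a1. The summed level of the list was 25.2 to 32.2 CPM in controls and 18.8 to 33.7 CPM in Rbfox2-/- retinas, the highest in M909. There the 1 higher gene, Cbr2, singled out after its values were seen, had 9.86 CPM against 0.416 to 1.14 CPM in the other 7 libraries (log2 fold change 2.18), and without it the sums were 24.4 to 31.5 CPM in controls and 17.7 to 28.2 CPM in Rbfox2-/- retinas. At that threshold 3 genes were lower without M901 and M902, where the median was -0.12. Whether these cells contribute to the lower values of the shared genes was not tested.

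Blood cells were scarce. Of 15 leukocyte markers 6 were tested, with 1 higher and 0 lower at an unadjusted p under 0.05 and a median of 0.24, and 2 higher and a median of 0.56 without M901 and M902. The T cell genes Cd3e, Cd3d and Cd3g and the B cell gene Ms4a1 had no row in the table, and the summed level was 0.999 to 1.32 CPM in controls and 0.944 to 1.83 CPM in Rbfox2-/- retinas. Plac8, a gene of monocytes and granulocytes, had a fitted log2 difference of 1.48 (standard error 0.644, adjusted p = 0.367 in edgeR), with 0.542 CPM in M909 and 0.0571 to 0.151 CPM in the other Rbfox2-/- retinas. S100a8, a granulocyte gene, had 1.23 (adjusted p = 0.491 in edgeR). Without M901 and M902 these values were 2.08 and 1.81.

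Markers of vessels and of tissue attached to the retina were examined in the same way. Of 10 endothelial markers 4 were lower and 0 higher at an unadjusted p under 0.05, with a median of -0.27, a summed level of 247 to 272 CPM in controls and 222 to 283 CPM in Rbfox2-/- retinas, and 1 lower gene without M901 and M902. Ly6c1, a surface protein of endothelium, had -0.55 (standard error 0.090, adjusted p = 0.0837 in edgeR) and the receptor Tie1 -0.35 (adjusted p = 0.338 in edgeR). Most of the endothelial sum was Kdr, with 192 ± 12.7 CPM (SD, n = 4) in controls and 220.8 CPM in M909. The endothelial genes, which tracked Olfml3 within the groups, were not higher together with it between the groups. Of 10 pericyte and smooth muscle markers 5 were lower and 1 was higher (Rgs5 -0.34 and Vtn 0.16, adjusted p = 0.176 and 0.192 in edgeR). Vtn had 783 CPM in controls, against 21.1 CPM for Pdgfrb, the next highest of the list, and its cell source was not tested. Of 10 fibroblast and scleral markers 2 were lower (Mgp -1.003 and Dcn -0.85, adjusted p = 0.0568 and 0.290 in edgeR), with Fbln1, Fbn1 and Col1a2 lowest in M901 and M902. Of 10 pigment epithelium and ciliary markers 4 were lower (Gsta3 -1.67 and Pmel -2.13, adjusted p = 0.322 and 0.338 in edgeR). The pigment epithelium list summed to 82.0 to 254 CPM in controls and 52.9 to 160 CPM in Rbfox2-/- retinas, and its part in the values of Olfml3 was not tested. The control M898 was far above the others for Pmel (51.7 CPM against 2.87, 21.7 and 4.69 CPM) and Gsta3 (20.997 CPM against 2.31, 11.2 and 3.69 CPM). In M901 and M902, Best2 had 0.150 and 0.208 CPM against 4.14 to 16.03 CPM in the other libraries, and Slc13a4 had 1.48 and 1.29 CPM against 10.4 to 21.9 CPM. Without M901 and M902 the lower genes numbered 1 in each of these last 3 lists.

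Markers of the retina's own neurons and glia gave smaller medians, between -0.15 and 0.079. Counts are at an unadjusted p under 0.05, which 6.87% of all genes tested passed as lower and 6.42% as higher. Of 10 Muller glia markers, among them Apoe, 2 were lower and 0 higher (Glul -0.17 and Dkk3 -0.16, adjusted p = 0.221 and 0.370 in edgeR). Of 6 astrocyte markers 0 passed in either direction (S100b -0.27 and Slc1a2 -0.15). Of 8 rod markers 3 were higher and 0 lower (Gnat1 0.19 and Pde6b 0.13, adjusted p = 0.236 and 0.257 in edgeR). Of 12 ganglion, amacrine and horizontal cell markers 1 was higher and 0 lower (Lhx1 0.18, adjusted p = 0.353 by edgeR, with Onecut1 next at -0.13). Without M901 and M902, where the shares of all genes were 2.46% lower and 3.5% higher, 3 rod markers were higher and 1 lower. The Muller glia list then had 1 higher and 1 lower, the ganglion, amacrine and horizontal cell list 1 higher and 0 lower, and the astrocyte list 0.

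Olfml3 was also set beside the other genes of the olfactomedin domain family. Of 12 listed genes 9 were tested, with a median of -0.046. At an unadjusted p under 0.05, 0 were lower or higher, against 6.87% lower and 6.42% higher over all genes tested. The lowest p values belonged to Olfm4 with -0.22 (standard error 0.117, adjusted p = 0.446 in edgeR) and Olfml2a with -0.78 (standard error 0.429, adjusted p = 0.463 in edgeR). Olfml2a varied widely, from 7.56 to 15.3 CPM in controls and from 2.60 to 10.2 CPM in Rbfox2-/- retinas, with M901 and M902 lowest.

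The tested genes around Olfml3 had smaller fitted differences than Olfml3, which was selected on its own. GENCODE M21 places 22 genes within 250 kb, 11 of them protein coding, and 10 were tested. Of these 0 had an unadjusted p under 0.05, 7 had values above 0 and 3 below. Over all genes tested 6.87% were lower and 6.42% higher at that threshold, so a count of 0 among 10 genes is near those shares. The nearest of those tested, the kinase gene Hipk1, lies 1.8 kb away with a log2 value of -0.078 (standard error 0.043, adjusted p = 0.459 in edgeR). Syt6 on the other side had -0.0083 (standard error 0.077, adjusted p = 0.976 in edgeR). The largest positive value was 0.32 for Bcl2l15 (standard error 0.180, adjusted p = 0.471 in edgeR). The antisense gene Phtf1os, with 0.15, was the one neighbour with every Rbfox2-/- retina above every control, as were 3.64% of all genes tested. Dclre1b, Ap4b1, Ptpn22, Rsbn1 and Phtf1 lay between 0.033 and 0.097, and Gm15471 had -0.36 with a standard error of 0.449. The other 12 annotated genes had no row in the table.

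**Figure D5:**
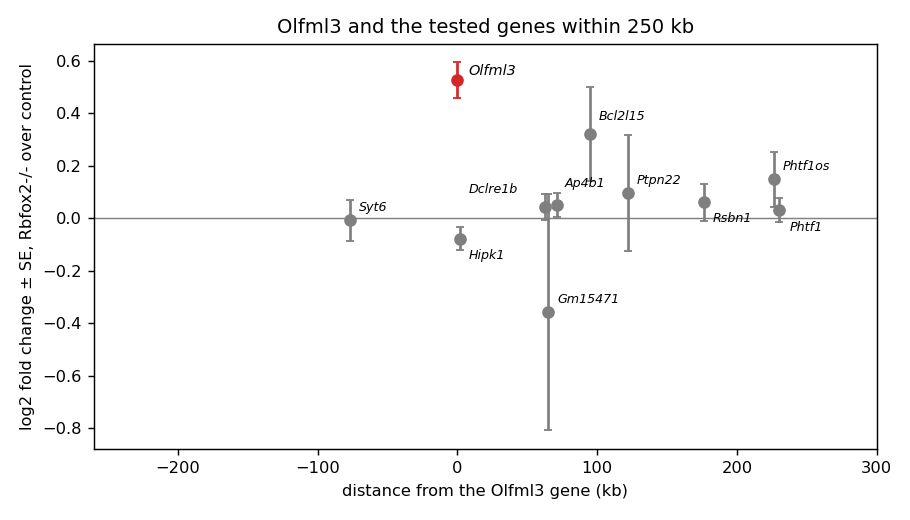
Log2 fold change with its standard error (vertical axis) of Olfml3 (red) and the 10 tested genes within 250 kb (grey) against distance from the Olfml3 gene in kb (horizontal axis, negative towards lower coordinates). Olfml3 lies at 0.52 and the nearest tested gene, Hipk1, at -0.078.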

How the data were processed

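Retinal poly(A) RNA was sequenced from 8 mice, 1 library each. According to the paper's methods the authors aligned paired reads to mm10 with STAR and counted fragments on known genes, and the deposited table gives raw counts per gene. The methods name both RefSeq and Ensembl models, and the length implied for Olfml3 matched RefSeq. The deposited FPKM values, which the authors made from counts, gene length and library size, were used only to compare genes. The submitters' processing notes name CASAVA 1.8.2 and edgeR. Columns of the authors' own comparison (fold changes, p-values, FDR) and their adjusted and averaged values were not used, and 0 sample columns were left unmapped. Some items are not reported here.

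Genes were filtered with filterByExpr, scaled by TMM, and compared by the quasi-likelihood method of edgeR 4.0.16 (R 4.3.3), 4 against 4, without covariates, with Benjamini-Hochberg adjustment over 16797 genes. The sources do not state litters or batches, so p-values measure the spread between these mice. Standard errors follow from the F statistic, and intervals are 95% intervals of the same fit. Levels are TMM-scaled CPM, and correlations used log2 CPM with a prior count of 2. On simulated data 200 of 16709 genes, drawn from the better counted ones, were changed by a fold of 2. The procedure called 93.5% of them and 14 others, and 0 with no gene changed. This share does not carry over to smaller folds or lower counts. The 9 genes and all gene lists were chosen with earlier results of these data known. In each list the genes with an FDR under 0.05 are named, or the 2 with the lowest p where fewer than 2 had one, with the 5 genes most like Olfml3, its neighbours within 250 kb and Rbfox2. Results were recomputed with edgeR's likelihood ratio test, DESeq2 1.42.0, limma 3.58.1 (voom and trend), other size factors and filters, each library left out, M901 and M902 left out, and 1 surrogate variable (sva 3.50.0). Outliers in groups of 4 were sought with Dixon's test, which found 0 in 22 groups.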

Additional observations from a re-analysis of the deposited data

How the results depend on the processing

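The log2 fold change of Olfml3 stayed between 0.49 and 0.60 under all 18 alternatives, and its FDR was under 0.05 in 11 of them. The number of genes called was 460 with DESeq2, 164 with the likelihood ratio test, 4 with a surrogate variable, 1 without M901 and M902, and 5 to 35 with each library left out. The number of the 9 genes called was 0 with the surrogate variable and without M901 and M902, and 0 to 1 with each library left out (0 without M896, M898, M893, M901 or M909). Some log2 fold changes of the other genes changed sign. Without M901 and M902 they were 0.019 (Cx3cr1), 0.012 (Csf1r), 0.18 (Aif1) and 0.013 (C1qa), and with the surrogate variable 0.052 (Cx3cr1), 0.036 (Csf1r), 0.18 (Aif1) and 0.035 (C1qa). Tmem119 ranged from -0.054 to 0.10 and Aif1 from -0.18 to 0.033 with each library left out. Tmem119 had -0.054 without M894, -0.031 without M896, -0.0089 without M893 and -0.025 without M909, and Aif1 had 0.033 without M902. P2ry12, Trem2 and Tyrobp kept their direction under all 18. The ratio of the summed level of the 8 genes was 0.891 to 0.956 with each library left out and 0.999 without M901 and M902, and that of the Olfml3 percentage 1.49 to 1.61 over its alternatives. Of the 5 genes most like Olfml3, 0 were among the top 5 without subtracting group means and 2 by Spearman's rank correlation. The counts of the gene lists without M901 and M902 were added after seeing the data. The causes were not tested. No paired analysis was possible because the labels give no replicate numbers, and the sources do not tie mice of different groups to each other. Precision is limited by 4 mice per group, and for Aif1 also by its low counts.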
